A study of Arabidopsis thaliana with 21 samples.

Results

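AT4G14060, AT2G33850 and AT5G53880 are 3 Arabidopsis thaliana genes whose signal was much higher in the roots of group ATGE_98 than in those of group ATGE_94, both grown on plates of GM medium. They were chosen by that measured difference in signal. Each had 1 probe set on the array, 245267_at for AT4G14060, 267459_at for AT2G33850 and 248186_at for AT5G53880, out of 13513 probe sets that the platform annotation ties to 1 gene. All 3 passed the filter on dim probe sets, which kept 8331 of those. A signal at or under the 40th percentile of its array was treated as dim. AT4G14060 and AT2G33850 exceeded that level on 21 of 21 arrays and AT5G53880 on 18.

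The study profiled roots of the accession Col-0 on 21 Affymetrix ATH1 arrays in 7 groups of 3. The medium of ATGE_93 was 1x MS, a mineral plate medium, with 1% sucrose, under long days at 22 °C. Soil was the substrate of ATGE_9 and ATGE_3, kept at 23 °C under continuous light with humidity at 65%, and for ATGE_3 the labels record soil in the harvested material. ATGE_99 and ATGE_95 were kept on plates of 0.5x GM to which 5% sucrose is listed as added, at 20 °C under continuous light. ATGE_98 and ATGE_94 had the same conditions with no sucrose listed. How much sucrose GM itself held is not given in the sources used here. Most plants of ATGE_95 and ATGE_94 were compared in the labels with a reference sample aged 7 days. ATGE_9, ATGE_99 and ATGE_98 are known as the later harvests of the developmental series and ATGE_3, ATGE_95 and ATGE_94 as the earlier ones, and the words later and earlier are used in that sense here. No genotype other than the wild type was used, and no label says that the 3 samples of a group came from separate cultures, so p-values measure the spread between these samples, which may be technical. In whole roots, fewer cells of a type and less RNA per cell cannot be told apart.

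AT4G14060 belongs to the major latex protein-like (MLP-like) family, named after a protein of poppy latex. These are small proteins of the Bet v 1 superfamily, whose fold encloses a hydrophobic pocket that can hold small lipophilic ligands, and the abscisic acid receptors of plants share that fold. AT2G33850 is a member of the small E6-like family, named after E6, a protein of the cotton fibre. No role is given here for AT5G53880. The family names come from general knowledge of these genes and not from the annotation of the array.

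AT4G14060 was brightest in later roots on GM with sucrose. Its signals were 160.5, 144.8 and 155.4 in ATGE_93, 103.5, 95.25 and 76.78 in ATGE_9 and 74.88, 70.34 and 67.36 in ATGE_3. On GM they were 603.2, 611.4 and 614.3 in ATGE_99, 114.9, 80.98 and 98.77 in ATGE_95, 302.5, 311.1 and 341.2 in ATGE_98 and 35.41, 30.46 and 26.03 in ATGE_94. From the highest, the order of the group means was ATGE_99, ATGE_98, ATGE_93, ATGE_95, ATGE_9, ATGE_3 and ATGE_94, and among neighbours in that order only ATGE_95 and ATGE_9 had overlapping arrays. The fitted span, ATGE_99 over ATGE_94, was 20.1-fold.

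AT2G33850 was brightest in the earlier soil roots. Its signals were 242.0, 229.6 and 242.8 in ATGE_93, 231.1, 228.8 and 271.0 in ATGE_9 and 586.5, 515.7 and 537.8 in ATGE_3. On GM they were 207.0, 237.9 and 208.1 in ATGE_99, 35.76, 44.17 and 46.56 in ATGE_95, 183.9, 256.3 and 223.6 in ATGE_98 and 30.77, 26.31 and 33.45 in ATGE_94. The 7 groups thus lay at 3 heights. ATGE_3 was alone at the top, ATGE_9, ATGE_93, ATGE_98 and ATGE_99 followed with means between 217.7 and 243.6 and with overlapping arrays between neighbours, and ATGE_95 and ATGE_94 were far below. The arrays of ATGE_95 and ATGE_94 did not overlap, and the span of ATGE_3 over ATGE_94 was 18.2-fold.

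AT5G53880 was at nearly the same level in both soil groups and in both later GM groups. Its signals were 64.01, 65.03 and 72.42 in ATGE_93, 137.1, 117.4 and 122.8 in ATGE_9 and 133.0, 127.6 and 117.2 in ATGE_3. On GM they were 120.5, 149.3 and 123.7 in ATGE_99, 52.25, 24.66 and 24.14 in ATGE_95, 118.2, 131.3 and 120.7 in ATGE_98 and 7.10, 8.60 and 18.03 in ATGE_94. The means of ATGE_99, ATGE_3, ATGE_9 and ATGE_98 ran only from 123.4 to 131.2, and neighbours among them overlapped. ATGE_93 lay below these 4 groups and ATGE_95 below ATGE_93, with no overlap at either step. ATGE_94 was dim on all 3 arrays, so its signal is only a bound. In ATGE_95 replicate 1 stood above replicates 2 and 3, which were barely over the 40th percentile of their arrays.

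**Figure D1:**
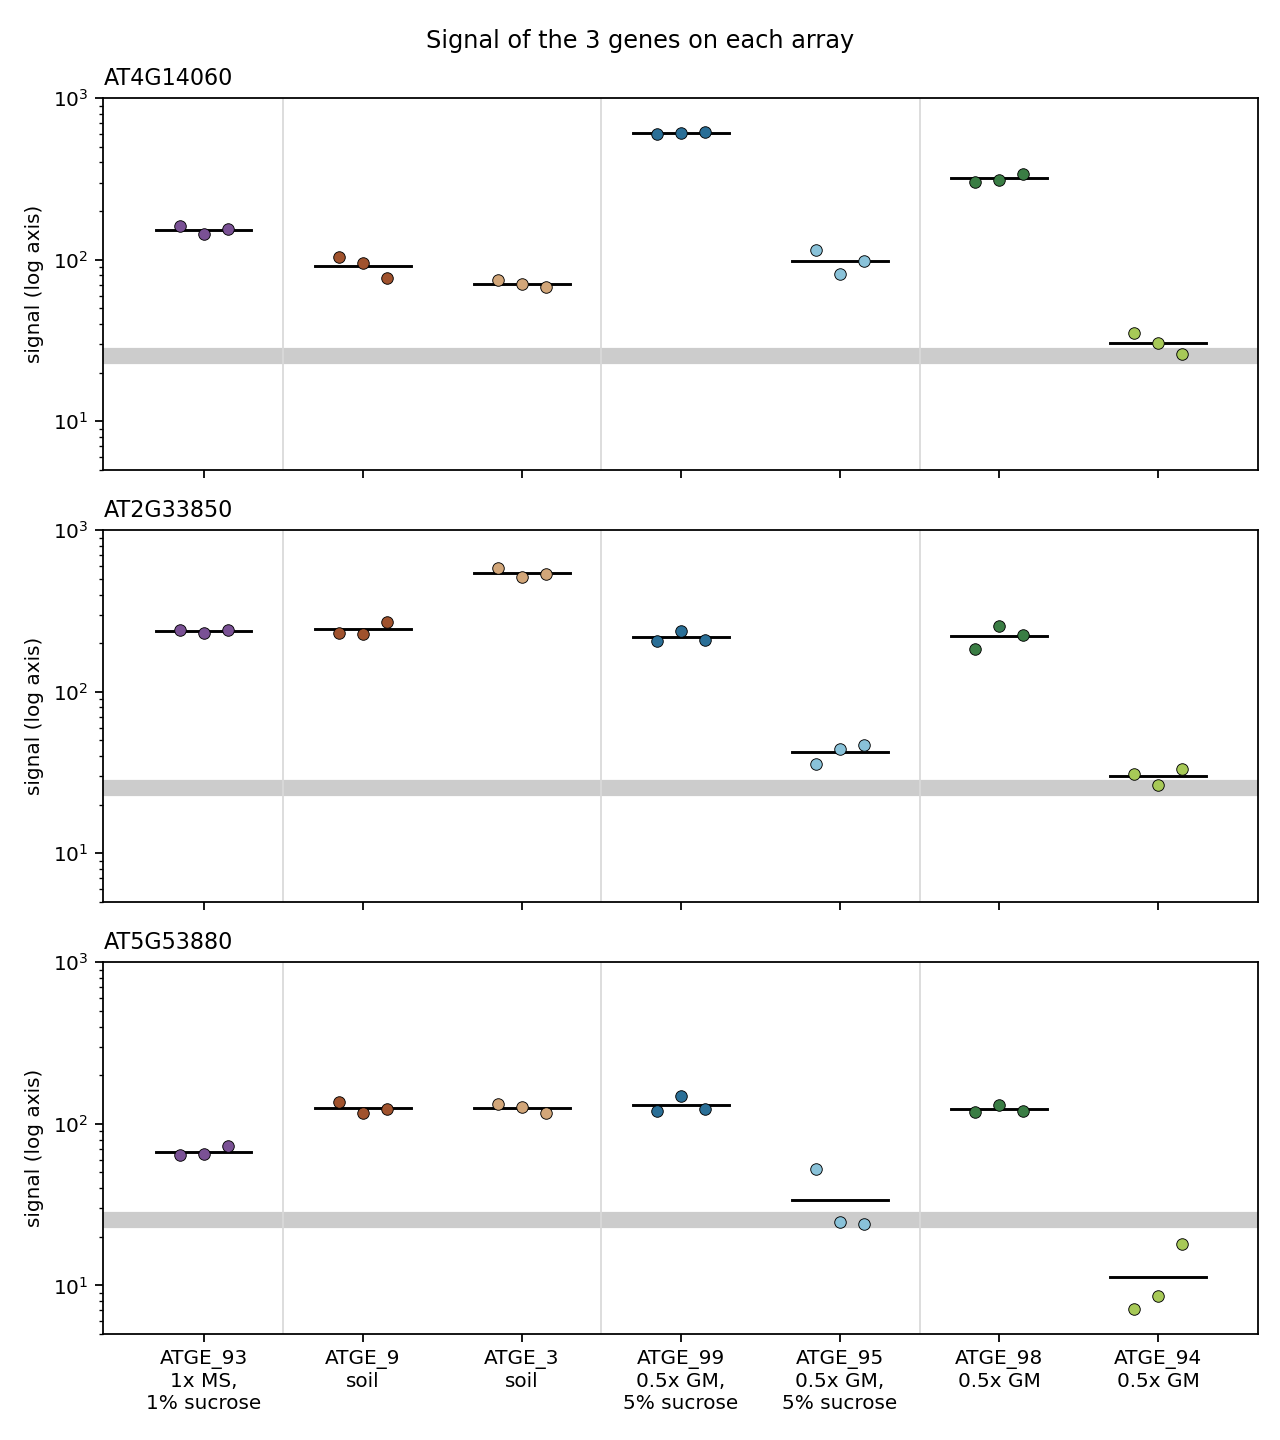
Signal of the 3 genes (log axis) on each of 21 arrays, in 7 groups of 3, with points for arrays, black bars for group means and a grey band for the range of the 40th percentiles (22.93 to 28.04). AT4G14060 is highest in ATGE_99, AT2G33850 in ATGE_3, and AT5G53880 lies within 117.2 to 149.3 in ATGE_9, ATGE_3, ATGE_99 and ATGE_98.

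The median signal of the arrays ran from 38.7 to 45.2 and the number of arrays limits the precision of each value. RNA integrity was read from 2 controls, GAPDH and actin, as 3' over 5' signal. For GAPDH it was 1.17 ± 0.0364 in ATGE_9 against 1.38 ± 0.0626 in ATGE_3 (SD, n = 3 each), 1.06 ± 0.0134 in ATGE_99 against 1.25 ± 0.157 in ATGE_95, and 1.13 ± 0.0402 in ATGE_98 against 1.09 ± 0.0419 in ATGE_94. For actin it was 1.76 ± 0.140 in ATGE_9 against 2.38 ± 0.104 in ATGE_3, 1.58 ± 0.106 in ATGE_99 against 2.81 ± 0.783 in ATGE_95, and 2.07 ± 0.185 in ATGE_98 against 1.85 ± 0.426 in ATGE_94. Actin was thus highest in ATGE_95 and GAPDH in ATGE_3. Of 12 genes listed as root markers 3 had a probe set that could be named, EXPA7 and EXPA18, expansins of root hairs, and AT1G30870, a peroxidase gene, and their summed signal ran from 127.8 to 1912 over the arrays. Of 9 shoot markers 2 had one, LHCB4.1, a light-harvesting protein, and RCA, Rubisco activase, with sums from 79.3 to 548. None of these 5 genes was at 0 on any array. The check of the root label rests on these few genes.

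The contrast that chose the genes gives their size but is no test of them. AT4G14060 averaged 318 ± 20.3 in ATGE_98 and 30.6 ± 4.69 in ATGE_94 (SD, n = 3 each), a fitted log2 difference of 3.39 ± 0.12 (SE), or 10.5-fold. AT2G33850 averaged 221 ± 36.2 in ATGE_98 and 30.2 ± 3.61 in ATGE_94, 2.87 ± 0.12 on the log2 scale, or 7.30-fold. AT5G53880 averaged 123 ± 6.94 in ATGE_98 against a dim 11.2 ± 5.92 in ATGE_94, at least 5.15-fold higher. By fitted difference they stood at ranks 7, 13 and 4 of 8331 genes, and the genes ranked next to AT2G33850 had log2 differences of 2.98 and 2.85. For AT5G53880 that rank uses a fitted log2 difference of 3.58 ± 0.25, which rests on the dim signal in ATGE_94. Its bound does not place it above or below AT4G14060 and AT2G33850. Over all probe sets 41.7% passed at an adjusted p under 0.05, with 21.3% higher in ATGE_98, 20.4% lower and 3.51% higher by at least 2-fold. The summed root markers ran from 449.2 to 516.4 in ATGE_98 against 706.7 to 810.0 in ATGE_94, and the shoot markers from 504.9 to 547.9 in ATGE_98 against 402.3 to 467.8 in ATGE_94. Of the 2 shoot genes, LHCB4.1 was higher in ATGE_98 (log2 0.61 ± 0.1) and RCA did not pass (log2 −0.08 ± 0.1). The part of the markers in these differences was not tested.

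The same question of harvest stage can be tested with ATGE_99 against ATGE_95, where 5% sucrose was in the medium. Neither group was a side of the contrast that chose the genes, but the model shares its spread over all 7 groups. With only the groups compared, the limma adjusted p-values were 1.4e-08 for AT4G14060, 5.8e-08 for AT2G33850 and 4.9e-05 for AT5G53880. All 3 genes rose in the later set. AT4G14060 averaged 609.6 ± 5.78 in ATGE_99 and 98.2 ± 17.0 in ATGE_95, 6.27-fold (log2 2.65 ± 0.12, limma adjusted p = 5.7e-14). AT2G33850 averaged 218 ± 17.6 in ATGE_99 and 42.2 ± 5.67 in ATGE_95, 5.18-fold (log2 2.37 ± 0.12, limma adjusted p = 1.9e-13). AT5G53880 averaged 131 ± 15.8 in ATGE_99 and 33.7 ± 16.1 in ATGE_95, 4.15-fold (log2 2.05 ± 0.25, limma adjusted p = 6.1e-07). The groups did not overlap for any of the 3 genes, and all 3 of 3 passed upward by at least 2-fold. Of all 15284 probe sets tested 47.9% passed, 27.9% passed upward and 4.70% did so upward by at least 2-fold. In this contrast 58.3% of all calls were higher, but 46.5% were under quantile normalization and 31.3% after centring each array on its median, so that background depends on the scaling. The 3 differences stayed between 1.86 and 2.46 after median centring, under which the median over all probe sets was −0.12 where it was 0.08 as deposited. The 3' over 5' ratios were lower in ATGE_99 than in ATGE_95 for both controls, as given above, and their part in these differences was not tested.

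On soil the stage contrast, ATGE_9 against ATGE_3, gave a different result for each gene. AT2G33850 fell in the later roots, to 244 ± 23.7 in ATGE_9 against 547 ± 36.2 in ATGE_3, 2.25-fold (log2 −1.17 ± 0.12, limma adjusted p = 4.4e-08), with no overlap. AT5G53880 averaged 125.8 ± 10.2 in ATGE_9 and 125.9 ± 8.02 in ATGE_3 and did not pass (adjusted p = 0.99). The 95% interval of its log2 difference ran from −0.52 to 0.52. That width comes from a spread shared over all 7 groups (SE 0.25), and with only the groups compared the SE was 0.08. AT4G14060 rose slightly, to 91.8 ± 13.7 in ATGE_9 against 70.9 ± 3.78 in ATGE_3 (log2 0.36 ± 0.12, limma adjusted p = 0.027). That call was lost without ATGE_9 replicate 1 (0.27, adjusted p = 0.15), ATGE_9 replicate 2 (0.33, adjusted p = 0.09), ATGE_3 replicate 3 (0.33, adjusted p = 0.089) or ATGE_3 replicate 2 (0.36, adjusted p = 0.064). So 1 of 3 genes passed upward and 1 downward here, where 26.7% of all probe sets passed, 11.4% upward and 15.3% downward. Both 3' over 5' ratios were also lower in ATGE_9 than in ATGE_3, as given above, and their part in these differences was not tested.

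Whether the stage difference itself was unequal was tested as ATGE_99 minus ATGE_95 less ATGE_9 minus ATGE_3. It was larger on GM with sucrose than on soil for all 3 genes, where 32.9% of all probe sets passed and 20.2% passed upward. For AT2G33850 the gap was 3.54 ± 0.16 on the log2 scale (SE, limma adjusted p = 1e-13), from a rise on GM with sucrose and a fall on soil. For AT4G14060 it was 2.28 ± 0.17 (adjusted p = 4.1e-10) and for AT5G53880 2.06 ± 0.36 (adjusted p = 0.0001). Each stage is also a separate set of plants, and stage and set cannot be told apart in any stage contrast. The time between the earlier and the later harvest is not given here for soil or for GM. An unequal time cannot be told apart from an unequal response. The summed shoot markers ran from 392.3 to 444.2 in ATGE_99 against 234.3 to 293.6 in ATGE_95, with both genes higher in ATGE_99. On soil they ran from 79.3 to 84.8 in ATGE_9 against 83.2 to 88.4 in ATGE_3, a sum of opposite moves. LHCB4.1 was higher in ATGE_9 (log2 0.38 ± 0.1, limma adjusted p = 0.0061). RCA was dim in ATGE_9 and at least 1.59-fold lower than in ATGE_3 (adjusted p = 9.3e-07). The summed root markers ran from 1007.8 to 1131.5 in ATGE_99 against 1763.4 to 1912.3 in ATGE_95, and from 127.8 to 148.5 in ATGE_9 against 197.6 to 254.4 in ATGE_3. Between soil and GM with sucrose both lists were therefore lower on soil at each stage. Their part in the results was not tested.

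**Figure D2:**
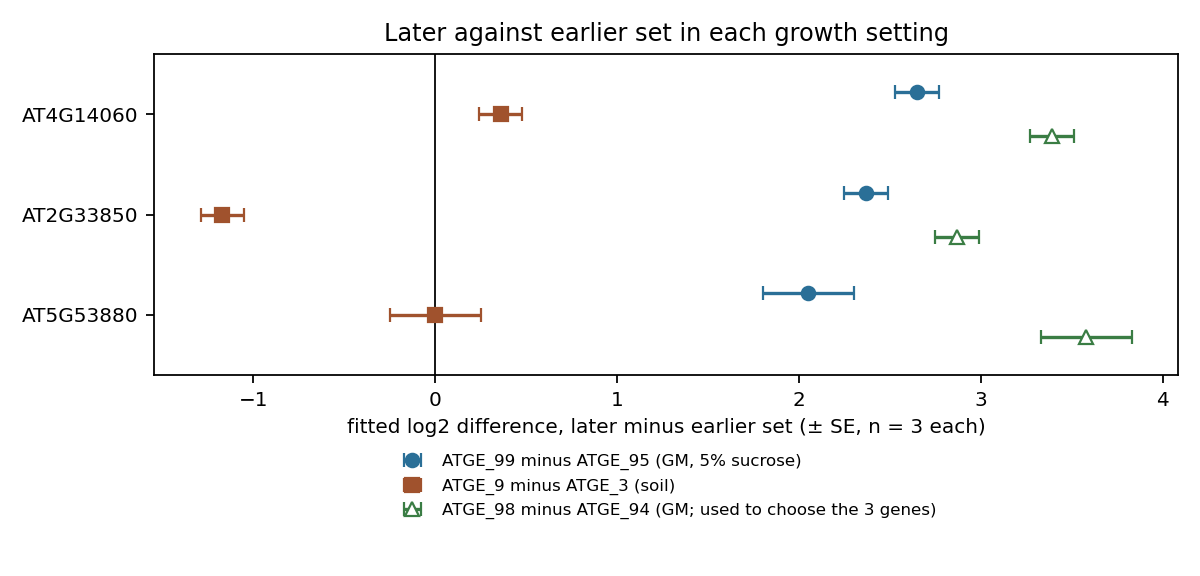
Fitted log2 difference of later minus earlier set (± SE, n = 3 arrays each) for the 3 genes, with filled circles for GM with 5% sucrose, filled squares for soil and open triangles for GM, the contrast that chose the genes. All 3 genes lie at 2.05 or above on GM with sucrose, and on soil at 0.36, −1.17 and 0. The triangle of AT5G53880 rests on a dim signal in ATGE_94.

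Soil and GM with sucrose were compared at each stage, in groups that differ in substrate, sucrose and temperature at once. No harvest age is given here for ATGE_3, ATGE_9 or ATGE_99, so the groups compared may differ in age as well. The harvested material of ATGE_3 also held soil, per the labels. These differences cannot be told apart. Among the earlier roots AT2G33850 was far higher on soil, 547 ± 36.2 in ATGE_3 against 42.2 ± 5.67 in ATGE_95, 13.0-fold (log2 3.70 ± 0.12, limma adjusted p = 5.3e-18). AT5G53880 was higher on soil as well, 126 ± 8.02 in ATGE_3 against 33.7 ± 16.1 in ATGE_95 (log2 2.0 ± 0.25, adjusted p = 3e-07). AT4G14060 went the other way, 70.9 ± 3.78 in ATGE_3 against 98.2 ± 17.0 in ATGE_95 (log2 −0.46 ± 0.12, adjusted p = 0.0019). In this contrast 66.2% of all probe sets passed, 38.8% upward and 27.3% downward, so a call by itself says little, but 9.34% passed upward by at least 2-fold.

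Among the later roots AT4G14060 alone of the 3 genes passed between soil and GM with sucrose. It averaged 91.8 ± 13.7 in ATGE_9 and 609.6 ± 5.78 in ATGE_99, 6.69-fold lower on soil (log2 −2.74 ± 0.12, limma adjusted p = 1.9e-15). AT2G33850 averaged 244 ± 23.7 in ATGE_9 and 218 ± 17.6 in ATGE_99 (adjusted p = 0.23), with a 95% interval of the log2 difference from −0.08 to 0.40. AT5G53880 averaged 126 ± 10.2 in ATGE_9 and 131 ± 15.8 in ATGE_99 (adjusted p = 0.85), with an interval from −0.58 to 0.46. Its SE was 0.25 with the spread shared over all 7 groups, and 0.1 with only the groups compared. The background was 65.7% of probe sets passing, 33.4% upward, 32.3% downward and 11.8% downward by at least 2-fold. An interval that includes 0 leaves room for differences of its width, and does not show equal levels.

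Roots on MS with 1% sucrose in long days were set against the later roots on GM with 5% sucrose. AT4G14060 was lower on MS, 154 ± 7.98 in ATGE_93 against 609.6 ± 5.78 in ATGE_99, 3.97-fold (log2 −1.99 ± 0.12, limma adjusted p = 5.6e-12). AT5G53880 was lower too, 67.2 ± 4.59 in ATGE_93 against 131 ± 15.8 in ATGE_99 (log2 −0.96 ± 0.25, adjusted p = 0.0025). AT2G33850 averaged 238 ± 7.38 in ATGE_93 and 218 ± 17.6 in ATGE_99 (log2 0.13 ± 0.12, adjusted p = 0.34, 95% interval −0.11 to 0.37), and passed only after median centring, at 0.35 with adjusted p = 0.022. Of all probe sets 56.3% passed in this contrast, 22.6% upward and 33.7% downward. The summed root markers ran from 1391.3 to 1497.6 in ATGE_93 and the shoot markers from 236.9 to 272.8, against the ATGE_99 ranges above, and their part was not tested. Medium, sucrose, light, temperature and harvest all differ between these groups and cannot be told apart.

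The sucrose contrasts on GM each share 1 side with the contrast that chose the genes, so they are given as values. Of all probe sets 34.4% passed in the earlier pair and 24.6% in the later pair. Of the markers, 3 of 3 root genes were higher with sucrose in the earlier pair (median log2 1.23) and in the later pair (1.14), and 2 of 2 shoot genes were lower in the earlier pair (−0.75) and 1 of 2 in the later pair (−0.33). Their part in the sucrose contrasts was not tested. AT4G14060 was higher with sucrose at both stages and without overlap, 98.2 ± 17.0 in ATGE_95 against 30.6 ± 4.69 in ATGE_94 (log2 1.68 ± 0.12) and 609.6 ± 5.78 in ATGE_99 against 318 ± 20.3 in ATGE_98 (log2 0.94 ± 0.12). AT2G33850 averaged 42.2 ± 5.67 in ATGE_95 and 30.2 ± 3.61 in ATGE_94 (log2 0.48 ± 0.12). In the later pair it averaged 218 ± 17.6 in ATGE_99 and 221 ± 36.2 in ATGE_98, with overlapping arrays (log2 −0.01 ± 0.12). AT5G53880 averaged 33.7 ± 16.1 in ATGE_95 against a dim 11.2 ± 5.92 in ATGE_94, at least 1.31-fold higher. Its later pair overlapped, at 131 ± 15.8 in ATGE_99 and 123 ± 6.94 in ATGE_98 (log2 0.08 ± 0.25). AT4G14060 was thus the gene of the 3 whose arrays were separated by sucrose at both stages.

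The 3 genes were alike in the contrast that chose them and less so over all groups. Over the means of the 7 groups, which include ATGE_98 and ATGE_94, the log2 signals of AT2G33850 and AT5G53880 correlated with Pearson's r = 0.91, those of AT4G14060 and AT5G53880 with r = 0.67 and those of AT4G14060 and AT2G33850 with r = 0.44. The values for all genes come from the same arrays and scaling.

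Relatives of AT4G14060 were examined because it is MLP-like, from a list made with earlier results of these data known. Of 27 other MLP-like genes listed, 16 had a probe set with 1 gene, 8 of these passed the filter and the other 8 were dim on all arrays of every group. On GM, 7 of the 8 were higher in ATGE_98 than in ATGE_94 and 1 was lower, with a median log2 difference of 0.99 against 0.02 over all tested probe sets, where 21.3% were higher and 20.4% lower. AT1G70880 averaged 254 ± 13.9 in ATGE_98 and 87.0 ± 7.30 in ATGE_94, 2.92-fold (log2 1.55 ± 0.11, limma adjusted p = 1.9e-10). AT4G23680 averaged 1254 ± 66.7 in ATGE_98 and 553 ± 41.4 in ATGE_94, 2.27-fold (log2 1.18 ± 0.07, adjusted p = 7.4e-12), and AT3G26460 193 ± 10.1 in ATGE_98 and 78.7 ± 2.39 in ATGE_94, 2.45-fold (log2 1.29 ± 0.09, adjusted p = 1.6e-10). The lower one, AT1G30990, was dim in ATGE_98 and no longer passed without ATGE_94 replicate 3. Its mean in ATGE_94, 20.35 ± 11.44, was under the 40th percentiles of those arrays (23.24 to 24.89), so no least fold can be given for its fall. Median centring left 6 higher and 1 lower.

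With sucrose, 5 of the 8 MLP-like relatives rose and 2 fell in ATGE_99 against ATGE_95, with a median of 0.67 against 0.08 over all probe sets (27.9% higher, 20.0% lower). AT1G70880 averaged 333 ± 36.4 in ATGE_99 and 100.5 ± 10.9 in ATGE_95 (log2 1.73 ± 0.11, limma adjusted p = 2.2e-11). AT3G26460 averaged 293 ± 3.84 in ATGE_99 and 144 ± 19.6 in ATGE_95 (log2 1.04 ± 0.09, adjusted p = 4.3e-09), and AT4G23680 1419 ± 29.4 in ATGE_99 and 778 ± 33.9 in ATGE_95 (log2 0.87 ± 0.07, adjusted p = 7.5e-10). AT1G14960 went the other way, at 1087 ± 36.0 in ATGE_99 and 1510 ± 63.7 in ATGE_95 (log2 −0.47 ± 0.07, adjusted p = 5e-06). The other faller, AT1G30990, was dim in ATGE_99, at least 1.16-fold lower than in ATGE_95. The counts were 6 rises and 2 falls under quantile normalization, 4 and 2 after median centring, and 5 and 1 without ATGE_99 replicate 1.

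On soil 0 of the 8 relatives rose and 2 fell by limma in ATGE_9 against ATGE_3, with a median of −0.08 against −0.04 over all probe sets (11.4% higher, 15.3% lower). Under quantile normalization, and without ATGE_9 replicate 3, 1 rose. The fallers were AT3G26460, at 124 ± 10.4 in ATGE_9 and 170.1 ± 10.5 in ATGE_3 (log2 −0.46 ± 0.09, adjusted p = 0.00047), and AT1G30990, which was dim in ATGE_9 at 19.1 ± 5.61 and at least 2.15-fold lower than its 54.2 ± 3.73 in ATGE_3 (adjusted p = 0.00013). The difference of the stage contrasts, GM with sucrose less soil, passed upward in 5 of 8 and downward in 1 (median 0.73 against 0.11, with 20.2% of all probe sets upward and 12.6% downward). The upward ones included AT3G26460 at 1.5 ± 0.13 (adjusted p = 5.1e-09) and AT1G70880 at 1.74 ± 0.16 (adjusted p = 1e-08).

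Between the later soil and GM groups most tested MLP-like relatives were lower on soil, as AT4G14060 was. Their profiles over all groups were less alike. Over the 7 group means, which include ATGE_98 and ATGE_94, Pearson's r with AT4G14060 ran from −0.30 for AT1G30990 to 0.84 for AT3G26460. In ATGE_9 against ATGE_99, 6 of 8 were lower on soil and 0 higher by limma, also 0 under quantile normalization and median centring (median −1.60 against 0.01, with 32.3% of all probe sets lower). AT4G23680 averaged 95.6 ± 6.79 in ATGE_9 and 1419 ± 29.4 in ATGE_99, 14.9-fold lower (log2 −3.89 ± 0.07, limma adjusted p = 2.1e-22). AT1G14960 averaged 306 ± 10.2 in ATGE_9 and 1087 ± 36.0 in ATGE_99 (log2 −1.83 ± 0.07, adjusted p = 8.1e-17), and AT1G70880 46.7 ± 4.02 in ATGE_9 and 333 ± 36.4 in ATGE_99, 7.12-fold lower (log2 −2.83 ± 0.11, adjusted p = 2.4e-16). In ATGE_3 against ATGE_95, 2 were higher and 5 lower on soil (median −1.07 against 0.13, with 38.8% of all probe sets higher and 27.3% lower). The 2 higher calls were absent after median centring and without ATGE_3 replicate 1, where 0 passed upward and 5 downward, and 1 gene was higher without ATGE_95 replicate 2 or ATGE_95 replicate 3. In ATGE_93 against ATGE_99, 1 was higher and 7 lower on MS (median −1.19 against −0.11, with 22.6% of all probe sets higher and 33.7% lower). The higher one was AT1G30990, dim in ATGE_99 and at least 2.16-fold higher in ATGE_93.

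With sucrose on GM, where the root and shoot markers moved as given above, 6 of 8 MLP-like genes were higher and 1 lower in ATGE_95 against ATGE_94 (median 0.72 against −0.03, with 15.2% of all probe sets higher and 19.2% lower). AT1G14960 averaged 1510 ± 63.7 in ATGE_95 and 540.2 ± 58.1 in ATGE_94, 2.80-fold (log2 1.49 ± 0.07, limma adjusted p = 6e-14). In ATGE_99 against ATGE_98, 5 were higher and 1 lower (median 0.39 against 0.01, with 12.7% higher and 11.9% lower). Of the 5, AT1G30990 was dim in both groups, and 3 genes were higher without ATGE_98 replicate 2, ATGE_99 replicate 2 or ATGE_99 replicate 3. The lower one in each pair was AT1G23120, at 142 ± 8.81 in ATGE_95 against 229 ± 56.6 in ATGE_94 (log2 −0.65 ± 0.14, adjusted p = 0.0009) and at 197 ± 13.6 in ATGE_99 against 327 ± 26.3 in ATGE_98 (log2 −0.73 ± 0.14, adjusted p = 0.0004).

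**Figure D3:**
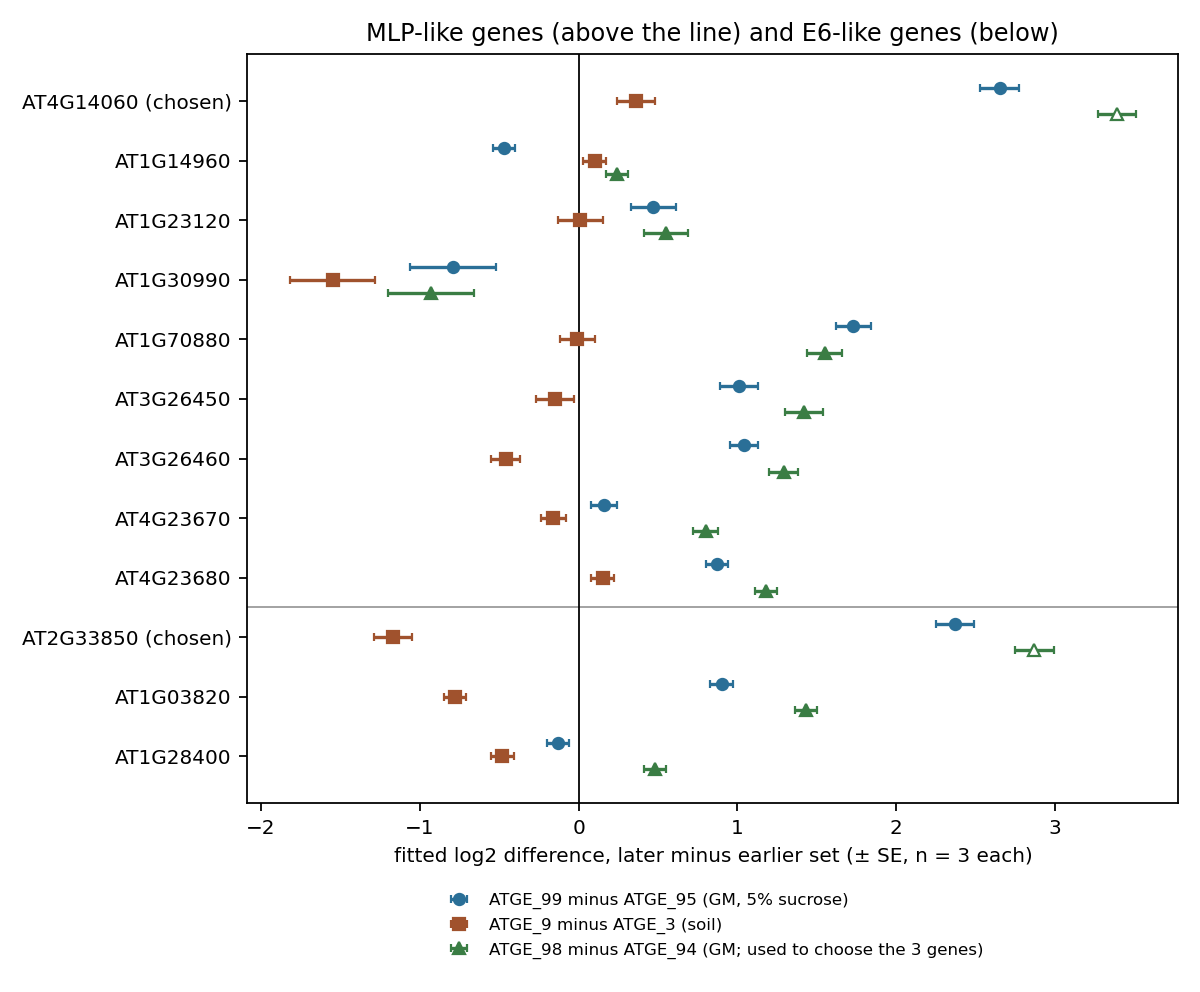
Fitted log2 difference of later minus earlier set (± SE, n = 3 arrays each) for AT4G14060 and 8 tested MLP-like genes above the line and for AT2G33850 and 2 E6-like genes below it. Circles are GM with 5% sucrose, squares soil and triangles GM, open for the 2 chosen genes, and AT1G03820 has the same signs as AT2G33850 at 0.90, −0.78 and 1.43.

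Both E6-like relatives of AT2G33850, AT1G03820 and AT1G28400, were measured. AT1G03820 had the same directions as AT2G33850 in all 3 stage contrasts. On GM with sucrose it rose to 229 ± 10.6 in ATGE_99 against 123 ± 10.8 in ATGE_95 (log2 0.90 ± 0.07, limma adjusted p = 1.6e-09). On soil it fell to 255 ± 6.86 in ATGE_9 against 439 ± 15.5 in ATGE_3 (log2 −0.78 ± 0.07, adjusted p = 2.5e-08), and on GM it averaged 220.1 ± 4.28 in ATGE_98 and 81.9 ± 8.45 in ATGE_94 (log2 1.43 ± 0.07, adjusted p = 1.4e-12). The difference of the stage contrasts, GM with sucrose less soil, was 1.68 ± 0.11 (adjusted p = 2.3e-11). Over the 7 group means, which include ATGE_98 and ATGE_94, its log2 signal correlated with that of AT2G33850 with r = 0.97. For AT1G28400, where r was 0.32, the soil contrast gave 837 ± 66.1 in ATGE_9 and 1165 ± 3.09 in ATGE_3 (log2 −0.48 ± 0.07, adjusted p = 8e-06). On GM with sucrose it averaged 1031 ± 41.8 in ATGE_99 and 1130.3 ± 102 in ATGE_95 and did not pass (log2 −0.13 ± 0.07, adjusted p = 0.12), but fell after median centring and without ATGE_95 replicate 2. On GM AT1G28400 rose, to 1150.4 ± 23.95 in ATGE_98 against 823.5 ± 40.95 in ATGE_94 (log2 0.48 ± 0.07, limma adjusted p = 4.8e-06). Its difference of the stage contrasts was 0.35 ± 0.1 (limma adjusted p = 0.0071) and did not pass after median centring.

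The genes with the most similar profile were sought among 8328 other genes by Pearson's r of mean log2 signal over the 7 groups. These groups include ATGE_98 and ATGE_94, so the values that chose the 3 genes enter each r. The points share arrays and scaling, and the highest of so many correlations is a description only. For AT2G33850 the nearest was AT5G44400, a berberine bridge enzyme-like gene, with r = 0.994. It averaged 175 ± 7.57 in ATGE_93, 169.7 ± 16.7 in ATGE_9, 505 ± 28.7 in ATGE_3, 165 ± 4.74 in ATGE_99, 30.0 ± 2.65 in ATGE_95, 140.0 ± 7.06 in ATGE_98 and a dim 14.1 ± 1.18 in ATGE_94. As for AT2G33850, ATGE_3 was highest and ATGE_95 and ATGE_94 lowest. AT5G14650, of the pectin lyase-like proteins, had r = 0.981 with 148 ± 23.5 in ATGE_3, and was dim in ATGE_95 and ATGE_94. AT2G01610, of the invertase and pectin methylesterase inhibitor family, had r = 0.974, and AT4G10280 and AT5G42660 had 0.982 and 0.974 with far smaller spans.

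For AT5G53880 the nearest was AT4G21620, a glycine-rich protein gene, with r = 0.991. It averaged 107 ± 3.31 in ATGE_93, 171.5 ± 5.92 in ATGE_9, 179 ± 12.5 in ATGE_3, 174 ± 7.02 in ATGE_99, 59.7 ± 3.43 in ATGE_95, 150.0 ± 8.45 in ATGE_98 and 36.9 ± 5.73 in ATGE_94. Again the soil groups and the later GM groups were high, ATGE_93 was between, and ATGE_95 and ATGE_94 were low. AT3G62450, AT4G39230, AT2G16900 and AT5G02230 followed with r from 0.973 to 0.952. For AT4G14060 the nearest was AT1G67920 with r = 0.976, at 141.5 ± 2.36 in ATGE_99, 69.6 ± 14.8 in ATGE_95, 110.6 ± 7.60 in ATGE_98 and 56.2 ± 12.8 in ATGE_94, a much smaller span than that of AT4G14060. AT3G28140, AT2G07719, AT4G17483 and AT3G60180 came next with r down to 0.968. AT3G28140 exceeded the 40th percentile on all 3 arrays in 0 of the 7 groups, AT4G17483 in 1, AT2G07719 in 4 and AT3G60180 in 7. Ranked over the 21 arrays in place of the group means, 3 of the 5 genes were shared for AT2G33850, 1 of 5 for AT5G53880 and 1 of 5 for AT4G14060.

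**Figure D4:**
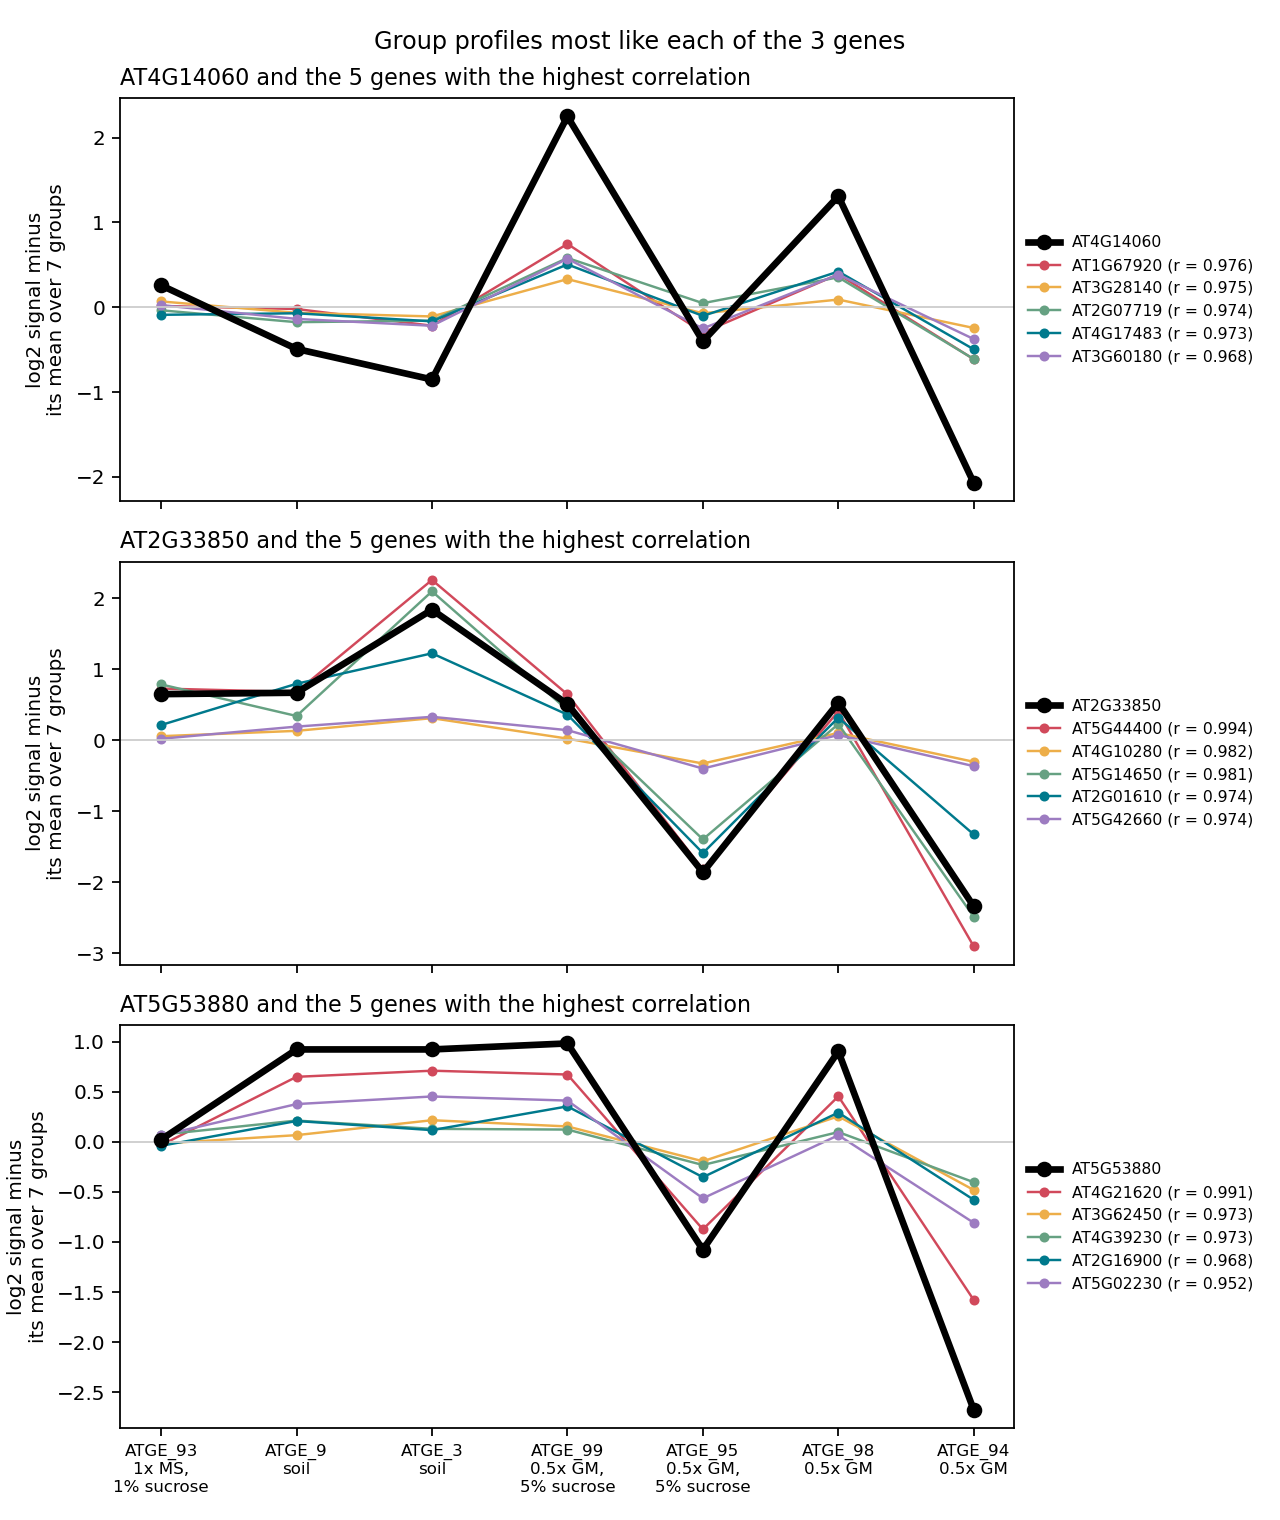
Mean log2 signal of each group minus the mean over the 7 groups, for each of the 3 genes (thick black line) and the 5 genes with the highest Pearson's r over group means, given in the legend. AT5G44400 follows AT2G33850 (r = 0.994) and AT4G21620 follows AT5G53880 (r = 0.991), while the 5 genes beside AT4G14060 have smaller spans.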

How the data were processed

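The authors deposited signal intensities, 1 column for each array, which come from MAS5 per the submitters' processing notes. Its version is not stated here. In each column the mean without the lowest and highest 2% of values was 100, and this scaling was kept.

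Of 22810 probe sets 64 were controls, and 15284 exceeded the 40th percentile of their array on at least 3 of 21 arrays and were tested. Genes were named from probe sets with 1 gene in the platform annotation (503 had several and 8730 none), with symbols and gene order from RefSeq's TAIR10.1 table. The log2 signals, without a pseudocount, were modelled by group (7 means) using limma 3.58.1 and R 4.3.3, with eBayes and an intensity trend and 14 residual degrees of freedom. All p-values are two-sided, with Benjamini-Hochberg adjustment over all tested probe sets of a contrast and a threshold of 0.05. The model code was tested on simulated data. Values after ± are SDs over arrays, or SEs for log2 differences, and folds come from mean log2 signals. Where a group was dim on all arrays, each array was set to the higher of its own signal and its 40th percentile.

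The genes, lists and tests were chosen with earlier results of these data known. Named were the 3 genes, the 5 most similar genes of each, and at most 3 relatives per contrast by adjusted p, with a few others taken after their values were seen. Searches by protein sequence and for promoter motifs were not run. Same-letter replicates of different groups did not deviate together (median r = 0.00737 over 63 pairs, −0.0775 to 0.071). The alternatives were 2 other scalings, 2 other filters (none, or the 60th percentile), a pseudocount of 6.99, no trend, only the groups compared, the replicate block and each array left out. Python 3.11.15, pandas 2.3.3 and matplotlib 3.10.9 served for tables and plots.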

Additional observations from a re-analysis of the deposited data

Results flagged for a closer look

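For all 3 genes the difference between later and earlier roots was unequal between GM with sucrose (ATGE_99 minus ATGE_95) and soil (ATGE_9 minus ATGE_3), by the test of that difference itself in limma. The gap was 3.54 on the log2 scale for AT2G33850, which rose on GM with sucrose and fell on soil. It was 2.28 for AT4G14060, which rose in both, and 2.06 for AT5G53880, which did not pass on soil. The soil rise of AT4G14060 was slight (log2 0.36), and its call was lost without any of 4 arrays. The time between harvests is not given here and may be unequal on soil and GM. Leaving out each of the 12 arrays in turn gave 3.43 to 3.62 for AT2G33850, 2.15 to 2.40 for AT4G14060 and 1.87 to 2.42 for AT5G53880.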

How the results depend on the processing

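All 3 genes kept their direction and their call in ATGE_99 against ATGE_95, in ATGE_3 against ATGE_95 and in the difference of the stage contrasts under each alternative run, with largest adjusted p-values of 4.9e-05, 0.022 and 0.00074. In ATGE_9 against ATGE_3 the call of AT4G14060 was lost without any of 4 arrays, with log2 differences from 0.27 to 0.49 over the 6 arrays left out. In ATGE_93 against ATGE_99, AT2G33850 passed after median centring (0.35). In the contrast that chose the genes, ATGE_98 against ATGE_94, the pseudocount gave 3.12 for AT4G14060, 2.61 for AT2G33850 and 2.88 for AT5G53880, which shrinks dim signals by construction. Leaving out single arrays there, added after the data were seen, gave 3.31 to 3.98 for AT5G53880. With the replicate block no call of the 3 genes changed, as for AT4G14060 on soil (0.36, adjusted p = 0.018), and 7304 probe sets passed in ATGE_99 against ATGE_95 where 7327 did without it. The total of calls in a tested contrast stayed within 1.5 times under each alternative, but the calls in 1 direction did not. Higher and lower calls numbered 4270 and 3057 in ATGE_99 against ATGE_95 (2371 and 5192 after median centring), 3094 and 1930 in the difference of the stage contrasts (1519 and 4032) and 3452 and 5153 in ATGE_93 against ATGE_99 (5412 and 3043). Among the 8 MLP-like relatives, 5 were higher in ATGE_99 against ATGE_98 (3 without any of 3 arrays) and 2 in ATGE_3 against ATGE_95 (0 after median centring). The share of calls that were higher was 42.7% in ATGE_9 against ATGE_3 (54.8% after median centring), 61.6% in the difference of the stage contrasts (27.4%), 58.7% in ATGE_3 against ATGE_95 (46.5%) and 40.1% in ATGE_93 against ATGE_99 (64.0%, or 51.6% under quantile normalization). The dim signal of AT5G53880 in ATGE_94, and its 2 arrays close to the 40th percentile in ATGE_95, limit the precision of its plate contrasts. The model shares 1 spread over all 7 groups, so the scatter in ATGE_94 and ATGE_95 also enters its other contrasts. In ATGE_9 against ATGE_3 its SE was 0.25, and 0.08 with only the groups compared.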

Other observations

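Of the 12 genes that flank the 3 chosen genes in the TAIR10.1 gene order, 2 on each side, 3 had a probe set with 1 gene. AAE15 (AT4G14070), an acyl-activating enzyme gene next to AT4G14060, lay at 53.6 ± 5.01 in ATGE_99 and 24.6 ± 6.65 in ATGE_95 (log2 1.16, limma adjusted p = 0.00056), and at 27.1 ± 2.14 in ATGE_98 and 23.7 ± 7.43 in ATGE_94. Its means in ATGE_95 and ATGE_94 lay near the 40th percentiles of their arrays, 22.93 to 24.13 and 23.24 to 24.89. Of all probe sets 27.9% passed upward in ATGE_99 against ATGE_95. AT4G14050, on the other side of AT4G14060, did not pass the filter, with a highest group mean of 12.3, in ATGE_3. AT2G33845, near AT2G33850, averaged 175 ± 7.21 in ATGE_99 and 196 ± 23.8 in ATGE_95 (log2 −0.16, adjusted p = 0.16). These flanking genes were chosen by position after the data were seen.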
